A study of Mus musculus and Homo sapiens with 40 samples.

Results

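C/EBPα sites were compared between mouse HPC-7 cells that expressed 1 of the isoforms of this transcription factor, p42, which is the whole protein, or p30, which starts further downstream. The sites were those called by the authors with an antibody against CEBPA (8178, Cell Signaling) in 1 library of each line, on chromosomes 1 to 19 and X. They number 79312 of the 957186 regions in all mouse peak lists of the series, and the libraries are 2 of its 40 samples. A site was classed as shared when it overlapped a site of the other line by at least 1 bp, and otherwise as p42-only or p30-only. The list of p42-expressing cells held 47489 sites, of which 26237 were shared and 21252 were p42-only. The list of p30-expressing cells held 31823 sites, of which 26255 were shared and 5568 were p30-only. The shared numbers differ slightly because a site could overlap more than 1 site of the other list.

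The HPC-7 line derives from mouse hematopoietic progenitors and has very low endogenous CEBPA, as the study describes it. Both lines carried a retroviral pMSCV-IRES-GFP vector with CEBPA joined to ERT2, an altered part of the estrogen receptor that keeps a protein in the cytoplasm until hydroxytamoxifen is present, and GFP-positive cells were sorted. The labels give no treatment for these libraries. The methods of the study state that cells with ERT2 fusions received hydroxytamoxifen before experiments. Each isoform was studied in 1 transduced line, so line and isoform cannot be told apart. The same lines were profiled with a second antibody, which recognises the estrogen receptor portion of the fusion (anti-ER, 1 library per line), and for the histone marks H3K27ac (3 samples per line, untreated and with LPS) and H3K4me1 (2 samples per line), with input chromatin as control. All 12 markers of hematopoietic progenitors that were examined, among them Kit, Cd34 and Gata2, had H3K27ac at their promoter in both lines. Of 17 markers of T cells, B cells, liver, epithelium and neurons, none had it in p42-expressing cells. In p30-expressing cells 1 had it, the T-cell kinase gene Lck. For comparison, 19238 of 21392 protein-coding genes had no anti-CEBPA site at the promoter in either line. Of these, 48.3% had H3K27ac at the promoter in p42-expressing cells and 48.1% in p30-expressing cells.

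C/EBPα is a basic leucine zipper factor that binds DNA as a dimer, each partner reading one side of a short palindrome. It can pair with other members of the C/EBP family, and with ATF4 or AP-1 proteins on composite sites. Both isoforms hold the same DNA-binding domain and zipper, and p30 lacks the N-terminal transactivation elements of p42. In co-immunoprecipitation from cells made to overexpress either isoform, the study found ATF4 with p42 and not with p30. In bone marrow, C/EBPα directs granulocyte and monocyte differentiation through genes for granule proteins, cytokine receptors and other transcription factors. Mutations that leave only p30 are recurrent in acute myeloid leukemia.

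The DNA at the sites is shown first, since the classes differed in the form of the C/EBP element they held. Each line below is an 80 bp stretch of the GRCm39 plus strand centred on a summit, from 5′ to 3′. Capitals mark every match, on either strand, to TTGCNNAA (the C/EBP element with any middle bases), TGATGCAA (the form for a C/EBP and ATF4 dimer) or TGTTGCAA (a form for C/EBP with AP-1 proteins). The first group holds the 5 shared sites of the best mean rank in both lists, at chr2:72877498-72877577 (nearest to Sp3), chr17:78539161-78539240 (an intron near Crim1), chr17:64194136-64194215 (Fer, intron), chr1:9002650-9002729 (Sntg1, intron) and chr17:70742203-70742282 (Dlgap1, intron).
Sp3: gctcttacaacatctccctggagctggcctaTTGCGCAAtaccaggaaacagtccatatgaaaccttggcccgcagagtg
Crim1: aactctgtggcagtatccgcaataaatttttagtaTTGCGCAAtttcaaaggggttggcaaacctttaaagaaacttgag
Fer: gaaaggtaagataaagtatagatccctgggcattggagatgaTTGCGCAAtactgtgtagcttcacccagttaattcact
Sntg1: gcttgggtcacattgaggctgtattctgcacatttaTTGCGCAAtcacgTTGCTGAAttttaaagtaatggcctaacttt
Dlgap1: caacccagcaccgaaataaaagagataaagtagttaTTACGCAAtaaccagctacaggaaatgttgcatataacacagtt

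Each of these 5 held an element with a CpG at its centre, TTGCGCAA in 4 and TTACGCAA in that of Dlgap1. The other groups hold the 5 best-ranked sites of a class and its 5 best-ranked at promoters, as far as the window overlapped no exon. For p42-only sites these were in introns near Abhd17b (chr19:21702692-21702771), Cebpg (chr7:34740877-34740956) and Dusp4 (not printed) and at the promoters of Camp (chr9:109678697-109678776) and Sqor (chr2:122613052-122613131).
Abhd17b: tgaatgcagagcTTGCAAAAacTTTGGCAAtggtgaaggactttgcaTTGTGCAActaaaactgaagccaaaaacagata
Cebpg: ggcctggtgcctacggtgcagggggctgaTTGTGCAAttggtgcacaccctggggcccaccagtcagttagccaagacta
Camp: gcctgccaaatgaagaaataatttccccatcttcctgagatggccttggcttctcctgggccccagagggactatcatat
Sqor: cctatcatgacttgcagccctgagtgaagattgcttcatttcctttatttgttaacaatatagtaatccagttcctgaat

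The Abhd17b window held 3 matches, that of Cebpg 1 and those of Dusp4, Camp and Sqor none. For p30-only sites they were in an intron near Ahi1 (chr10:20758680-20758759), in intergenic DNA near Adam6a (chr12:113542010-113542089), in an intron near Amer2 (chr14:60681769-60681848) and at the promoter of Shroom3 (chr5:93044932-93045011).
Ahi1: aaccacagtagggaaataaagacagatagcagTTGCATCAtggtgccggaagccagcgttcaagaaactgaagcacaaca
Adam6a: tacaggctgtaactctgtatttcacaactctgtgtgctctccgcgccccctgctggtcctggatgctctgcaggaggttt
Amer2: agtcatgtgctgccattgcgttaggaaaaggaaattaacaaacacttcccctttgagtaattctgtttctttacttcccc
Shroom3: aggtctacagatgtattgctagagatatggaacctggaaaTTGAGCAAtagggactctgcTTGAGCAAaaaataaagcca

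The match near Ahi1 was the ATF4 form read on the minus strand, the Shroom3 window held TTGAGCAA in 2 places, and the windows near Adam6a and Amer2 held none of the 3 forms. None of these p42-only and p30-only windows held TTGCGCAA or TTACGCAA, and that near Amer2 alone held another element with a CpG before its GCAA end.

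The p30-only sites were few and weak in their own list, and they lay nearer to genes than p42-only sites. The fold enrichment over local background at the summit, as deposited by the authors, had a median of 5.59 at p30-only sites and 6.24 at p42-only sites. At shared sites it was 10.3 in the p42 list and 8.38 in the p30 list. When p30 sites were ordered by −log10 p and split into 10 equal groups, the best group held a single p30-only site among 3182 (0.0314%, Wilson 95% interval 0.00555 to 0.178%), and the last group held 50.2% (48.4 to 51.9%). These intervals and all that follow cover counting error over sites only. No difference between the lines has a replicate check, so no p-value is given. The peak lists hold no read counts, so the depth of each library cannot be read from them. p42-only sites had a median width of 233 bp and p30-only sites of 221 bp, against 302 bp and 277 bp at shared sites in the p42 and p30 lists. A p42-only summit lay a median of 23.9 kb from the nearest p30 summit, and a p30-only summit 15.1 kb from the nearest p42 summit. A site of the other list lay within 1000 bp of 3.51% (3.27 to 3.76%) of p42-only sites and 5.66% (5.08 to 6.30%) of p30-only sites.

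The median distance to the nearest protein-coding start was 29.7 kb for p30-only, 39.5 kb for shared (p42 list) and 48.6 kb for p42-only sites. Promoters (from 1000 bp before to 100 bp after a transcript start) held 14.1% (13.2 to 15.1%) of p30-only, 10.2% (9.80 to 10.5%) of shared and 6.99% (6.65 to 7.34%) of p42-only sites. Intergenic DNA held 30.0% of p30-only, 34.0% of shared and 37.0% of p42-only sites. The intron share was about the same in each class, from 48.9% to 50.0%. The median GC content of the 200 bp around the summit was 44.0% at p30-only, 40.5% at shared and 38.5% at p42-only sites. The difference in GC content was present at promoters (51.0% at p30-only and 44.0% at p42-only sites) and away from them (43.0% and 38.5%). By chromosome, the number of p30-only per 100 p42-only sites ran from 21.8 on chromosome 3 to 35.8 on chromosome 19.

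**Figure D1:**
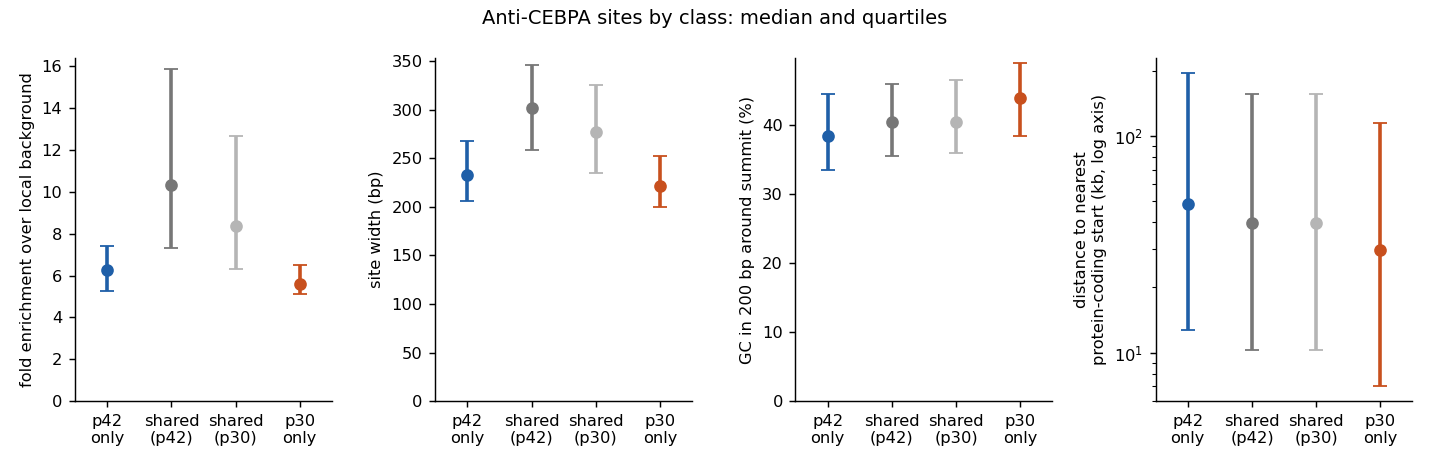
Medians of fold enrichment (authors' values), site width in bp, GC content of 200 bp in percent and distance to the nearest protein-coding start in kb (log axis), for p42-only, shared (each list) and p30-only sites; whiskers run from the lower to the upper quartile. Shared sites have the highest fold enrichment (10.3 in the p42 list), p30-only sites have the highest GC content (44.0%) and the shortest distance to a start (29.7 kb). The quartile ranges of GC content and distance overlap between all classes.

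Active chromatin marked p30-only sites more often than p42-only sites, and it did so in both lines. The summit lay in an H3K27ac peak of the same line at 28.9% (27.7 to 30.1%) of p30-only, 22.3% (21.8 to 22.8%) of shared (p42 list) and 14.8% (14.3 to 15.3%) of p42-only sites. H3K27ac of the other line covered 28.7% of p30-only and 11.7% of p42-only summits. Of p30-only sites, 26.0% lay in H3K27ac in both lines, 2.87% in the p30 line alone and 2.66% in the p42 line alone. Of p42-only sites, 10.3% lay in H3K27ac in both lines, 4.50% in the p42 line alone and 1.40% in the p30 line alone. Most sites of either class thus had the same H3K27ac call in both lines. After LPS, the bacterial lipopolysaccharide, H3K27ac of the same line covered 29.4% of p30-only and 13.3% of p42-only summits. H3K4me1, a mark of enhancers, covered 17.0% (16.1 to 18.1%) of p30-only summits in the p30 line and 12.2% in the p42 line. It covered 9.99% of p42-only summits in the p42 line and 11.3% in the p30 line. The H3K27ac and H3K4me1 lists of the p30 line were the longer ones, with 139190 and 168028 peaks against 129345 and 134650 in the p42 line, and the part of this in the values was not tested.

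The difference in H3K27ac was not confined to promoters. At promoters, H3K27ac of the same line covered 65.9% of the 786 p30-only and 36.5% of the 1485 p42-only summits, and 54.4% of shared summits in the p42 list. Away from promoters it covered 22.8% of p30-only and 13.2% of p42-only summits.

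**Figure D2:**
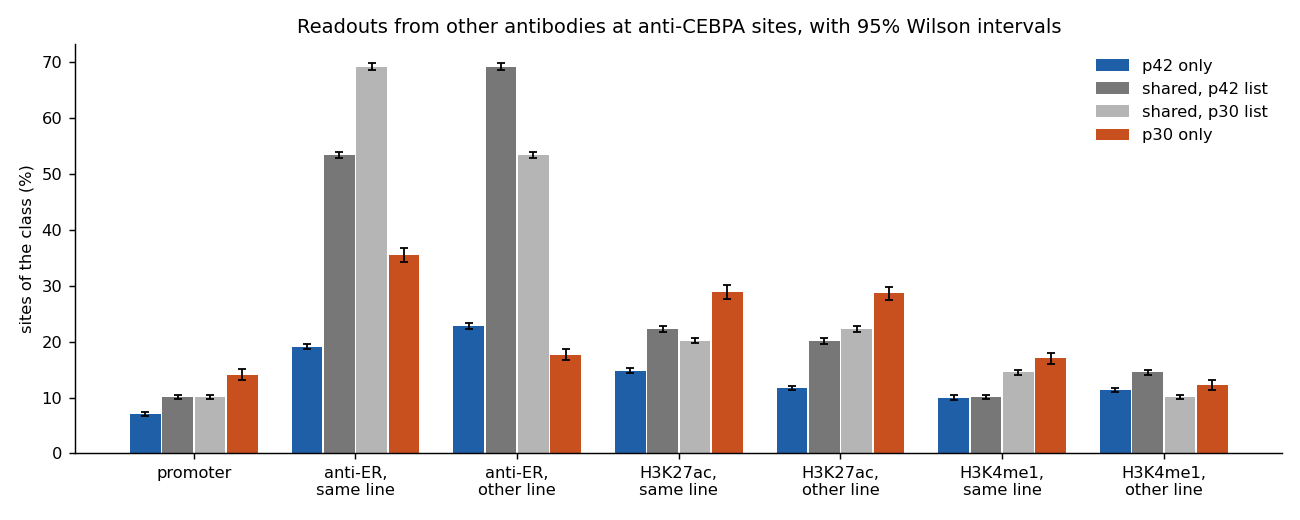
Percent of p42-only, shared and p30-only sites (y axis) at a promoter, with an anti-ER site, or with the summit in H3K27ac or H3K4me1 of the same or the other line; error bars are Wilson 95% intervals, which cover counting error only. The p30-only bars are higher than the p42-only bars for promoters (14.1% and 6.99%), H3K27ac of the same line (28.9% and 14.8%) and anti-ER sites of the same line (35.5% and 19.1%).

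The anti-ER antibody reads the fusion through another part of the protein. An anti-ER site of the same line overlapped 35.5% (34.2 to 36.7%) of p30-only and 19.1% (18.6 to 19.7%) of p42-only sites, against 69.3% and 53.4% of shared sites in the p30 and p42 lists. Among p42-only sites, 13.3% had an anti-ER site in both lines, 5.83% in the p42 line alone, 9.52% in the p30 line alone and 71.3% in neither. Among p30-only sites, 16.3% had one in both lines, 1.35% in the p42 line alone, 19.2% in the p30 line alone and 63.2% in neither. An anti-ER site in p30-expressing cells was therefore more frequent than one in p42-expressing cells even at p42-only sites (22.8% and 19.1%). The anti-ER lists differ in length, with 33952 sites in the p30 and 23210 in the p42 line, the reverse of the anti-CEBPA lists. With the best 23210 anti-ER sites of each line, the order at p42-only sites turned, to 13.2% for the p30 and 19.1% for the p42 line. At p30-only sites it held, with 24.7% for the p30 and 17.7% for the p42 line.

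The contrast between the classes was wider among strong sites. At a fold enrichment of 10 or more there were 90 p30-only and 1525 p42-only sites. Of these 90, 35.6% (26.4 to 45.8%) lay at promoters, 60.0% (49.7 to 69.5%) in H3K27ac and 86.7% (78.1 to 92.2%) on an anti-ER site of the p30 line, and their median GC content was 49.0%. Of the 1525, 7.34% (6.14 to 8.76%) lay at promoters, 20.0% (18.1 to 22.1%) in H3K27ac and 46.7% (44.2 to 49.2%) on an anti-ER site of the p42 line, at a median GC content of 38.5%. An anti-ER site of the other line was present at 68.9% of the 90 and 51.5% of the 1525. Many strong one-line sites thus had an anti-ER site in the line where anti-CEBPA gave none.

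When each list was cut to its best 31823 sites by −log10 p, there were 9327 p42-only and 9301 p30-only sites. Of these p30-only sites, 40.1% were present further down the full p42 list. The differences in place and chromatin kept their direction. Promoters held 13.4% (12.7 to 14.1%) of p30-only and 7.15% (6.65 to 7.69%) of p42-only sites, and H3K27ac of the same line covered 27.1% and 15.8%. The anti-ER shares of the same line were 38.3% and 26.8%, the H3K4me1 shares 16.4% and 10.5%, and the median GC contents 43.0% and 38.5%.

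The sequences at the summits also differed between the classes. TTGCNNAA was present within the 200 bp window at 56.1% (55.5 to 56.7%) of shared (p42 list), 43.9% (43.2 to 44.6%) of p42-only and 39.2% (38.0 to 40.5%) of p30-only sites. Windows of the same length 5 kb to either side held it in 9.25%, 9.41% and 8.85%, which serves as the background for each class. With the ATF4 and AP-1 forms added, the shares were 68.9%, 56.5% and 53.5%. At least 2 matches to TTGCNNAA were present at 8.72% of shared, 6.30% of p42-only and 3.83% of p30-only sites. The nearest match lay a median of 11 bp from shared summits (p42 list), 24 bp from p42-only and 21 bp from p30-only summits. At promoters the share of p30-only sites with TTGCNNAA was 32.2%, and at p42-only promoter sites it was 43.7%.

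The perfect palindrome TTGCGCAA, which is one of the forms of TTGCNNAA, was present at 3.59% (3.38 to 3.83%) of shared sites, 0.433% (0.353 to 0.531%) of p42-only and 0.754% (0.559 to 1.02%) of p30-only sites. The form TTGTGCAA, which differs from it in 1 middle base, was the most frequent in each class, at 21.6% of shared, 12.3% of p42-only and 11.9% of p30-only sites. TTACGCAA was present at 6.08% of shared sites and at 1.20% and 1.31% of p42-only and p30-only sites, and TTTCGCAA at 5.40%, 1.48% and 1.85%. TTATGCAA went the other way, at 6.19% of shared, 8.55% of p42-only and 7.08% of p30-only sites. These elements were then split by the base before the common end GCAA. The CpG form, TNNCGCAA, was present at 23.4% (22.9 to 23.9%) of shared, 7.59% (7.24 to 7.95%) of p42-only and 10.7% (9.87 to 11.5%) of p30-only sites, and in 0.846% of flanking windows. The TpG form, TNNTGCAA, was present at 49.7%, 45.7% and 42.4%, and in 9.25% of flanking windows. The TpG form includes the ATF4 and AP-1 forms, and both forms overlap with TTGCNNAA. The classes thus differed more in the CpG form than in the TpG form. This split was made after the single forms were counted, and it was not repeated with equal numbers of sites.

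The CpG form was then compared among sites of like fold enrichment. At a fold enrichment of 10 or more, the CpG form was present at 31.0% (30.2 to 31.8%) of shared sites in the p42 list and 7.67% (6.44 to 9.12%) of p42-only sites. From the weakest band (under 5) to the strongest, it went from 8.78% to 31.0% at shared sites, while at p42-only sites it stayed between 6.40% and 7.97%. At p30-only sites it ran from 7.28% in the weakest band to 21.1% (14.0 to 30.6%) in the strongest, where shared sites of the p30 list held it at 38.0% (37.1 to 39.0%). In the band of 5 to 7, which holds 3482 of the 5568 p30-only sites, it was at 10.8% (9.81 to 11.9%) of p30-only and 12.3% (11.6 to 13.0%) of shared sites of the p30 list, with overlapping intervals. The TpG form had no such gap in the strongest band of the p42 list, at 53.7% (51.2 to 56.2%) of p42-only and 50.1% (49.3 to 51.0%) of shared sites. In that band of the p30 list it was at 35.6% (26.4 to 45.8%) of p30-only and 46.9% (45.9 to 47.9%) of shared sites.

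**Figure D3:**
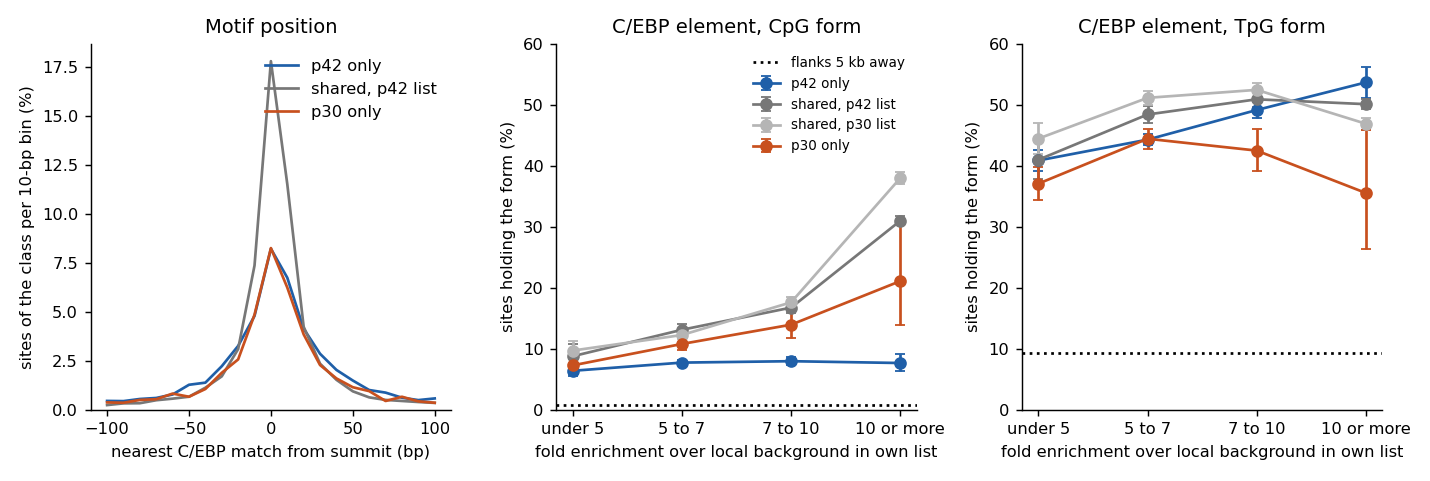
Left, percent of sites of a class by the distance of the nearest TTGCNNAA match from the summit in bp, in bins of 10 bp; middle and right, percent of sites with the CpG form and the TpG form in the 200 bp window, by band of fold enrichment and class, with Wilson 95% intervals for counting error and the level in flanking windows as a dotted line. Shared sites (p42 list) reach 17.8% in the central bin and p42-only sites 8.21%. In the band of 10 or more, the CpG form is at 31.0% of shared and 7.67% of p42-only sites, while the TpG form is at 50.1% and 53.7%.

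Elements of related factors differed less. The ATF4 form TGATGCAA was present at 9.34% (8.96 to 9.74%) of p42-only, 10.7% (10.3 to 11.1%) of shared and 10.5% (9.75 to 11.4%) of p30-only sites, over 0.692%, 0.612% and 0.700% in flanking windows. The AP-1 form TGTTGCAA was present at 6.85%, 5.95% and 5.80%. TTATGTAA, an element of PAR bZIP factors such as HLF, was more frequent at p42-only sites, at 4.09% (3.83 to 4.36%) against 2.38% (2.204 to 2.57%) at shared and 2.17% (1.82 to 2.59%) at p30-only sites, with 1.10%, 1.03% and 1.24% in flanking windows. The AP-1 element TGANTCA was close to its flanking level in each class, at 7.29% of p42-only, 7.29% of shared and 7.47% of p30-only sites over 6.06%, 5.89% and 5.94%. Of the elements of other hematopoietic factors, that of PU.1 (GAGGAAGT), a myeloid ETS factor, was present at 3.77% (3.30 to 4.30%) of p30-only, 2.69% of shared and 2.01% (1.83 to 2.21%) of p42-only sites, over 1.39%, 1.18% and 1.19% in flanking windows. That of RUNX factors (TGTGGTT) was present at 7.31%, 5.83% and 5.27%, over 5.62%, 4.97% and 4.74%. That of GATA factors (AGATAAG) was near its flanking level, at 2.93% (2.52 to 3.40%) of p30-only and 2.61% (2.41 to 2.83%) of p42-only sites over 2.82% and 2.99%. The GC-rich element of SP and KLF factors was present at 1.22% of p30-only and 0.329% of p42-only sites, over 0.440% and 0.388% in flanking windows, beside the difference in GC content given above. All motifs were counted on both strands, and a match is a description of the letters only.

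Shared sites did not have equal fold enrichments in both lists. The log2 ratio of the fold enrichment in the p30 list to that in the p42 list had a median of −0.24 (quartiles −0.60 and 0.11) over 26237 shared sites, with 379 sites (1.44%) above 1 and 2197 (8.37%) below −1. The fold enrichments come from separate libraries and were not put on a common scale, so these ratios describe the lists as deposited. The same holds where folds of both lines are given for single genes below. The shared sites were split by this ratio into 10 equal groups. From the group most enriched in p42 to the group most enriched in p30, the median GC content went from 39.0% to 45.5%, the promoter share from 8.84% to 19.2% and the share in H3K27ac of the p42 line from 23.9% to 40.4%. The share in H3K27ac of the p30 line went from 16.2% to 40.3%. These shares did not rise evenly. The promoter share was lowest in group 2 (6.82%) and H3K27ac of the p42 line in group 4 (16.8%). In group 9 they were still 12.7% and 26.2%. The share with TTGCNNAA stayed between 54.1% and 57.5%. The same log2 ratio of the anti-ER lists, at sites present in both of them, had a median of 0.04 (n = 1516) in the first and 0.55 (n = 1644) in the last group. The anti-ER libraries were not used to order the sites, though they came from the same lines. The first group also held sites that were strong in p42 and the last group sites that were weak in it, with median p42 folds of 15.4 and 6.72.

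**Figure D4:**
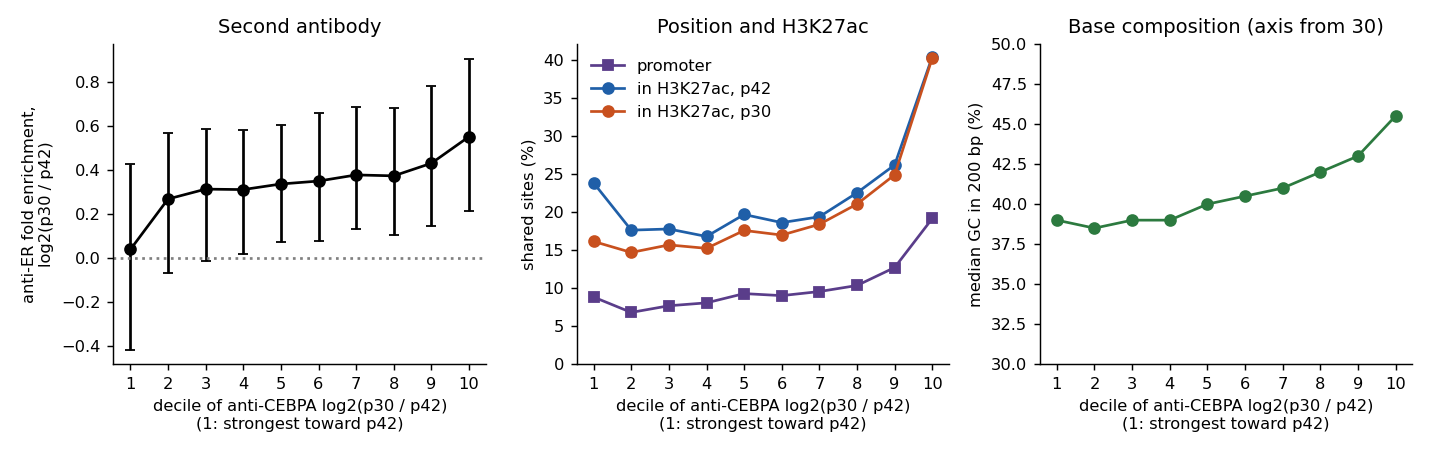
Shared sites in 10 equal groups by the log2 ratio of p30 to p42 anti-CEBPA fold enrichment (x axes, group 1 most enriched in p42). The y axes give the median anti-ER log2 ratio with bars for its quartiles, the percent of sites at promoters and in H3K27ac of each line, and the median GC content in percent on an axis that starts at 30. The median anti-ER ratio goes from 0.04 in group 1 to 0.55 in group 10, and GC content from 39.0% to 45.5%.

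The strongest sites of each class, by −log10 p in their own list, are given one by one. The best p42-only site lay at the start of an annotated transcript, 19.6 kb from the nearest protein-coding gene start, that of Dlst, a subunit gene of the 2-oxoglutarate dehydrogenase complex of the citric acid cycle (chr12:85176419-85176791). It had a fold enrichment of 30.0 and was number 1539 of the p42 list. With anti-ER the site was called in both lines, at 24.5-fold in p42 and 7.56-fold in p30. The next were in an intron near Abhd17b, a depalmitoylase gene (32.0-fold, anti-ER 58.5 in p42 and 14.7 in p30), and in an exon near Katna1, the gene of the microtubule-severing katanin (chr10:7644603-7644980, 31.7-fold). The 2 others lay near Cebpg, the gene of a C/EBP family partner without a transactivation domain (25.5-fold, anti-ER 24.0 and 11.98), and 206 kb from Dusp4, a MAP kinase phosphatase gene (chr8:35068051-35068461, 24.1-fold). All 5 had an anti-ER site in both lines, each with the higher fold in p42.

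The best p30-only site lay 2 bp from the start of Abcf2, a gene of the ABC-F ATPases (chr5:24782194-24782525), with a fold enrichment of 21.4 at number 2855 of the p30 list. Its anti-ER fold was 24.3 in p30 and 10.2 in p42. The next lay 28 bp from the start of Ttc9c, a gene of a tetratricopeptide protein (chr19:8796510-8796846, 16.9-fold, anti-ER 15.2 and 8.40). The site near Ahi1, a ciliary gene next to Myb, had 15.2-fold (anti-ER 17.4 in p30 and 4.17 in p42), and that near Amer2, a gene of WNT signalling, 15.4-fold (anti-ER 28.9 and 15.8). The site in intergenic DNA 34.5 kb from Adam6a had 15.8-fold and an anti-ER site in p30 alone. Thus 4 of these 5 had an anti-ER site in both lines, each with the higher fold in p30. At the 13366 shared sites with anti-ER sites in both lines, the log2 ratio of p30 to p42 anti-ER folds had a median of 0.34. A higher anti-ER fold in p30 was thus the usual direction at shared sites as well.

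The next sites were called with both antibodies and H3K27ac in a line, and had no anti-ER site in the other line. They were taken from the same ranked classes, so they could not outrank the sites named above. In p42-expressing cells the best were near Mrps35 and Cox18, genes of mitochondrial ribosomes and of cytochrome oxidase assembly, Elmo1, a gene of RAC activation, Cpap, a centriole gene, and Pi4kb, a lipid kinase gene, at 16.7- to 14.4-fold, and none of the 5 had H3K27ac in p30. In p30-expressing cells the best were at the promoters of Nab1, a corepressor gene of EGR factors, Sacm1l, a phosphoinositide phosphatase gene, and Vkorc1l1, a vitamin K epoxide reductase gene, and near Macroh2a1, a histone variant gene, and Adam6a, at 12.1- to 9.81-fold. H3K27ac covered 4 of these 5 in p42 as well. Of all p30-only sites, 1448 lay in H3K27ac in both lines and 160 in the p30 line alone. Of all p42-only sites, 2189 lay in it in both lines and 956 in the p42 line alone.

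Genes were then assigned to the classes. Of 21392 protein-coding genes, 1246 (5.82%) had a promoter site in both lines, 497 (2.32%) had one in p42 only and 411 (1.92%) had one in p30 only. With a site of any place nearest to the gene and within 100 kb, 9802 genes (45.8%) had sites in both lines, 2383 (11.1%) had them in p42 only and 676 (3.16%) in p30 only. With equal numbers of sites the promoter counts changed order, to 218 for p42 only and 658 for p30 only, and so did the counts for any site, to 1197 and 1499. H3K27ac of the p42 line was present at the promoter of 90.5% (87.3 to 93.0%) of the 411 genes with a promoter site in p30 only and 71.8% (67.7 to 75.6%) of the 497 with one in p42 only. It was present at 84.6% of genes with a promoter site in both lines and 48.3% of those with none. H3K27ac of the p30 line gave 89.5%, 68.6%, 83.1% and 48.1%.

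Members of 19 gene lists were described in the same way. Of their 466 distinct members, 462 were matched to the annotation, and 59 had a promoter site in both lines, 20 had one in p42 only and 15 had one in p30 only. These counts stand beside the shares of all genes above (5.82%, 2.32% and 1.92%) as a description only. Of the 20 genes with a promoter site in p42 only, 9 also had an anti-ER site of the p42 line there and 12 one of the p30 line, and 10 lay in H3K27ac of the p42 line. Of the 15 with one in p30 only, 12 had an anti-ER site of the p30 line and 8 one of the p42 line, and 13 lay in H3K27ac in each line. When the p42 list was cut to the length of the p30 list, 10 of the 20 p42-only genes kept their class and the other 10 lost their site (Ccr2, Hk2, Hlf, Irak2, Ldha, Or7a40, Or9a2, Otulin, Rpl18 and Rpl23). The p30 list was not cut, so its 15 genes could not change class. With a q-value under 1e-05 in both lists, 16 of the 20 p42-only genes and 11 of the 15 p30-only genes kept their class. Ccr2, Hk2, Ldha, Or9a2, Bcl2a1b, Cdc6, Rpl3 and Tet2 lost their site. Both cuts only remove sites, so none of these one-line genes could gain a site of the other line.

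**Figure D5:**
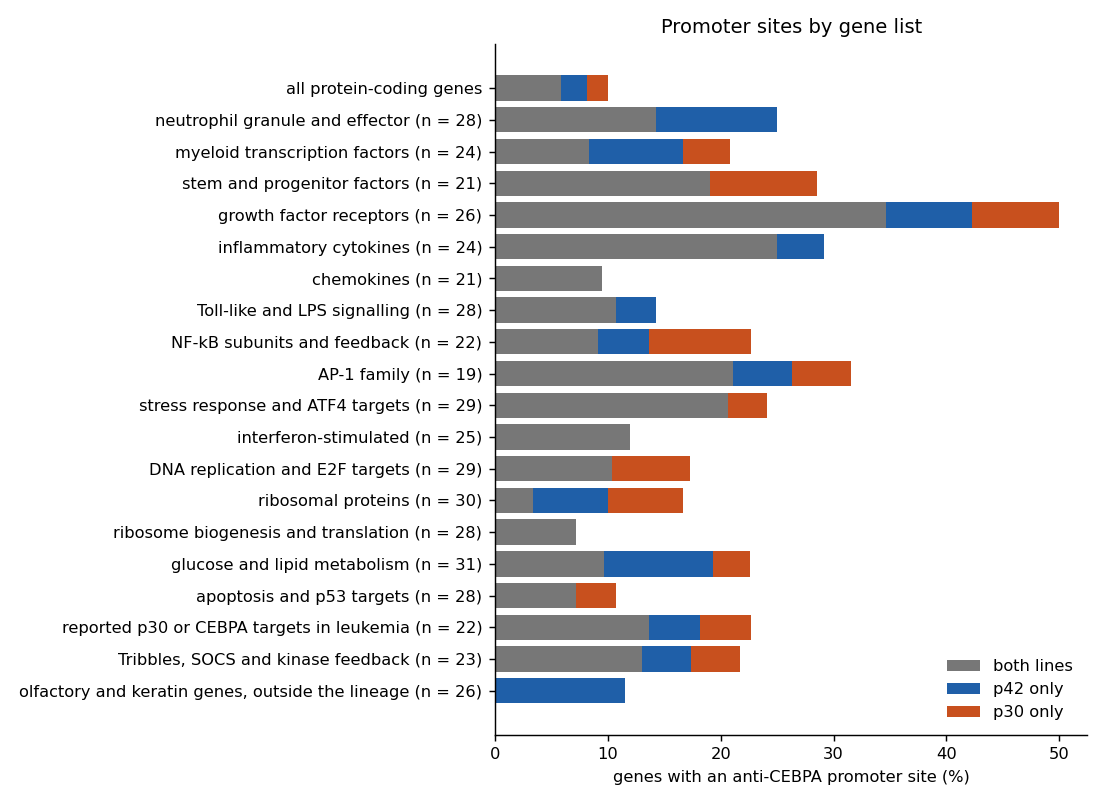
Stacked bars of the percent of matched members of each gene list (x axis) with a promoter site in both lines, p42 only or p30 only, beside all 21392 protein-coding genes (5.82%, 2.32% and 1.92%). Lists hold 19 to 31 matched members, so 1 gene moves a share by several points; the granule list has 3 members in p42 only and none in p30 only.

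Genes of neutrophil granules and effectors, textbook targets of C/EBPα, had promoter sites in both lines at 4 of 28, in p42 only at 3 (10.7%, beside 2.32% of all genes) and in p30 only at none. The 3 were Camp, which encodes the cathelicidin antimicrobial peptide, Lcn2, which encodes the siderophore-binding lipocalin 2, and S100a8, which encodes a calprotectin subunit. The Camp site lay 52 bp from the start with a fold of 19.4, and anti-ER gave 30.7 in p42 and 15.3 in p30. The Lcn2 site had 9.60-fold (anti-ER 16.8 in p42 and 10.4 in p30). S100a8 had promoter sites of 10.1- and 8.64-fold, the first with anti-ER folds of 19.7 in p42 and 7.35 in p30. The promoter sites of Camp and Lcn2 and the first of S100a8 lay in H3K27ac of the p42 line and not of the p30 line. The second S100a8 site lay in H3K27ac of neither line. All 3 genes kept their class with equal numbers of sites and with a q-value under 1e-05. These cuts only remove sites, so they could not give these genes a p30 site. In the same list, the promoters of Mpo (myeloperoxidase), Ltf (lactoferrin), Ms4a3 (a granulocyte-monocyte progenitor gene) and Hp (haptoglobin) had shared sites. That of Hp was the strongest, at 19.6-fold in p42 and 36.3-fold in p30. Ltf also had a p42-only promoter site of 6.72-fold. Counting all sites, 19 of the 28 (67.9%) had sites in both lines, 6 (21.4%) in p42 only and none in p30 only. Of all protein-coding genes, 45.8%, 11.1% and 3.16% had sites in these ways. Nearest to the granule and effector genes lay 31 shared, 26 p42-only and 4 p30-only sites. Over all genes there were 17755 shared, 13593 p42-only and 4041 p30-only sites.

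Among myeloid transcription factors, the promoter of Cebpa itself had a p42-only site of 6.72-fold, 0.189 kb from the start, without an anti-ER site in p42 and with one of 11.3-fold in p30. Both lines carry a CEBPA transgene, and its part in reads at this gene was not tested. A shared site lay 8.04 kb from the Cebpa start, at 8.35-fold in p42 and 9.23-fold in p30. Hlf, a PAR bZIP factor of stem cells, had a p42-only site of 5.28-fold with neither an anti-ER site nor H3K27ac. The promoters of Cebpg and Nfil3, the latter a bZIP repressor, had sites in both lines. Nfil3 also had a p42-only promoter site of 15.3-fold (anti-ER 21.2 in p42 and 14.5 in p30), in H3K27ac of the p42 line alone. Runx1, a regulator of hematopoietic stem cell emergence, had a p30-only promoter site of 5.01-fold, with a p42 summit 1102 bp away, and 9 shared, 4 p42-only and 4 p30-only sites assigned to it in all.

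Stem and progenitor factors had promoter sites in both lines at 4 of 21 genes, in p42 only at none and in p30 only at 2, Runx1 and Hhex. Hhex, a homeobox gene of early progenitors, had p30-only promoter sites of 7.16- and 6.98-fold, both with anti-ER sites in each line. At the shared promoter sites of Nfe2 and Tal1, erythroid and megakaryocytic regulators, the stronger fold was in p30, at 51.8 against 27.8 for Nfe2 and 39.6 against 24.5 for Tal1. Meis1, a cofactor of HOX proteins, had 16.8 in p30 and 9.74 in p42, and Erg, an ETS factor of stem cells, 4.58 and 7.80.

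Growth factor and cytokine receptors had the most promoter sites in both lines, at 9 of 26 genes, with 2 in p42 only and 2 in p30 only. Il6st, the common receptor chain of the IL-6 family, had a p42-only site of 9.12-fold, and the chemokine receptor gene Ccr2 one of 5.18-fold. Csf1r, the receptor of macrophage colony-stimulating factor, had a p30-only site of 6.98-fold, with anti-ER folds of 7.56 in p30 and 6.24 in p42. Csf2rb2 had one of 6.32-fold, 1280 bp from a p42 summit. Il6ra had a shared site of 34.6-fold in p30 and 22.6-fold in p42, and Ifngr2, a chain of the interferon gamma receptor, one of 22.3-fold in p30 and 6.77-fold in p42.

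Cytokine genes had shared promoter sites at 6 of 24, with Il1a alone in p42 only (9.27-fold) and none in p30 only. The Il1a site had an anti-ER site in p30 (4.20-fold) and not in p42, and H3K27ac in neither line. Chemokines had them at 2 of 21 and interferon-stimulated genes at 3 of 25, with no one-line promoter site in either list. At Il6 the shared promoter site had 14.1-fold in p42 and 9.57-fold in p30, at Tnf 5.73 and 8.49, and at Ccl3 6.94 and 13.5, so the order of the lines differed between these genes. Toll-like and LPS signalling genes had shared promoter sites at 3 of 28 and a p42-only one at Irak2 (5.12-fold), a kinase gene of the pathway. NF-κB subunits and feedback genes had them at 2 of 22, a p42-only one at Otulin (5.28-fold), a linear deubiquitinase gene, and p30-only ones at Nfkbie (5.46-fold), an inhibitor of NF-κB, and Zfp36 (6.32-fold), an mRNA decay factor, with anti-ER folds of 22.3 in p30 and 11.4 in p42 at Zfp36. AP-1 family genes had them at 4 of 19, a p42-only one at Jdp2 (7.68-fold), a repressor of the family, and p30-only ones at Atf5 (6.98- and 4.64-fold). At Mafg, a small MAF gene, the shared site had 25.1-fold in p30 and 13.5-fold in p42.

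Outside of myeloid function, stress response and ATF4 targets had shared promoter sites at 6 of 29 genes, and Atf5 had sites in p30 only. Aldh18a1, a proline synthesis gene, had a p30-only site of 5.96-fold at its promoter beside a shared one. DNA replication and E2F targets had them at 3 of 29, none in p42 only, and 2 in p30 only, at Ccnd2 (7.59-fold), the cyclin D2 gene, and Cdc6 (5.12-fold), a replication licensing gene. Cyclin D3 (Ccnd3) had, beside a shared promoter site of 12.2-fold in p30 and 5.65-fold in p42, a p30-only one of 10.8-fold and a p42-only one of 4.36-fold. Metabolic genes had shared promoter sites at 3 of 31 and p42-only ones at Pparg (6.95-fold), Hk2 (5.10-fold) and Ldha (4.02-fold), and a p30-only one at Pkm (5.59-fold). Ribosomal protein genes had 1 shared, 2 p42-only (Rpl18, Rpl23) and 2 p30-only promoters (Rplp2, Rpl3) of 30, and ribosome biogenesis genes 2 shared of 28. At Hk2, Rpl18 and Rpl23 the p42-only promoter sites had an anti-ER site in p30 alone. Apoptosis and p53 targets had 2 shared of 28 and a p30-only site at Bcl2a1b (5.12-fold), an antiapoptotic gene. Tribbles, SOCS and kinase feedback genes had 3 shared of 23, a p42-only site at Spred2 (6.96-fold) and a p30-only one at Socs2 (7.59-fold), a gene of cytokine feedback. Genes reported as p30 or CEBPA targets in leukemia had 3 shared of 22, Hlf in p42 only and Tet2 in p30 only (4.64-fold, 466 bp from a p42 summit). Olfactory and keratin genes, outside of the lineage, had no shared promoter site and 3 p42-only ones of 26 (Or10a5, Or7a40, Or9a2, at 7.20- to 4.23-fold), none with an anti-ER site or H3K27ac in either line. This was 11.5% of the list, beside 2.32% of all genes.

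Several genes with many sites were long. Pde4d, a phosphodiesterase gene of 1506 kb, had 20 shared, 18 p42-only and 7 p30-only sites, and Robo2, an axon guidance receptor gene of 1556 kb, had 20, 8 and 3. Rgs2, a regulator of G protein signalling of only 4.82 kb, had 9 shared, 11 p42-only and 2 p30-only sites, and its neighbour in the family Rgs1 had 8, 3 and 5. Mrtfa, a coactivator of SRF, had 5 p30-only sites beside 2 shared and 1 p42-only. With at least 3 sites in 1 line and none in the other there were 124 genes for p42 and 4 for p30, of 21392. These counts come from the full lists, of which that of p42 is the longer, and were not repeated with equal numbers of sites. With equal numbers, the counts of genes with any site in one line only changed order, as given above. Among the 124, Tpm3-rs7 had 6 sites, and Ffar2, a receptor of short-chain fatty acids, had 4, of which 3 lay at promoters. The 4 genes for p30 were H3f3a, Hmgb4, Fstl4 and Cdkn3. At Fos, the AP-1 gene that the study discusses, 4 shared and 2 p42-only sites were assigned. The stronger p42-only site lay 59.9 kb from the start with 13.0-fold and had anti-ER sites and H3K27ac in both lines. No site was assigned to Cxcl10. Distal sites were given only to the nearest protein-coding start, so sites in this chemokine cluster could go to neighbouring genes. The study itself shows binding of both isoforms at an enhancer of Cxcl10, so the missing assignment does not mean missing binding.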

How the data were processed

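ChIP-seq peak lists of HPC-7 cells were analysed, and samples were grouped by their labels. The study's methods name Trim Galore for trimming (version 0.6.6 in the submitters' processing notes), Bowtie2 for alignment to mm39, Picard for marking duplicates, which were dropped, and MACS2 for narrow peaks, with input chromatin as control. The H3K27ac and H3K4me1 lists were called by the authors on pooled replicates, the anti-CEBPA and anti-ER lists on 1 library each. Peak names in the other lists are marked as called without a shifting model, and those in the anti-CEBPA lists are not. For each peak the authors deposited a fold enrichment over the local background, with −log10 values of its p-value and its q-value. These values served to describe, rank and filter sites within their own list, and fold enrichments of 2 lists were set side by side only as named.

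All 4 CEBPA and anti-ER lists reached a q-value near 0.05. Peaks outside of chromosomes 1 to 19 and X, 101 in each anti-CEBPA list, were left out, and the human ATF4 list was not used here. Every column of the lists used was mapped to its sample or group. Starts and places came from GENCODE vM39 on GRCm39, with 16 duplicate gene names left out. The symbols Cxcl11, Ddit3, Mx2 and G6pc of the gene lists were not matched. Motifs were searched on both strands in 200 bp around the summit, with windows 5 kb to either side as background. Shares carry Wilson 95% intervals. With 1 library per line no test across lines was made.

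The classes, gene lists and named sites were chosen with earlier results of these data known. Named sites were the 5 best-ranked of each class, the 5 best with an anti-ER site and H3K27ac of the same line and no anti-ER site of the other line, and the 5 best at promoters. Named genes were taken from the 5 with the most sites of a class (not all are reported here), list members with promoter sites in one line only, and otherwise those with the most sites, plus Fos and Cxcl10. Other members and genes, among them those with shared sites of unequal strength, Rgs2, Ffar2 and the genes with sites in 1 line only, were named after their values were seen. The steps were tested on simulated sites. Alternatives were lists of equal length, stricter q-values, other overlap rules, wider promoters and other windows. Python 3.11.15, pandas 2.3.3, numpy 2.4.6, scipy 1.17.1, pysam 0.24.0 and matplotlib 3.10.9 were used.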

Additional observations from a re-analysis of the deposited data

How the results depend on the processing

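The shared fraction was 55.2% of p42 and 82.5% of p30 sites. It became 70.7% and 70.8% with the same number of sites by −log10 p, 70.0% and 70.0% by fold enrichment, 58.8% and 86.5% with a q-value under 1e-05 in the list described alone, 54.4% and 81.1% with a reciprocal overlap of 50%, 54.4% and 81.2% with summits within 100 bp, and 56.8% and 83.5% when a site within 1000 bp counted as shared. With a q-value under 1e-05 in both lists, the p30 value became 84.6%. The p30-only minus p42-only difference in promoter share, 7.13 points, became 9.67 with promoters of 2500 bp on both sides. That in TTGCNNAA, −4.67 points, became −3.15 in 100 bp and −6.15 in 500 bp. That in anti-ER sites of the same line, 16.3 points, became 14.9 with summits within 100 bp, 11.4 with the same number of sites and 20.4 with a q-value under 1e-05. That in H3K27ac, 14.1 points, became 11.3 with the same number and 15.4 with a q-value under 1e-05. Among sites of a fold of 10 or more, an alternative chosen after seeing the data, these 4 became 28.2, −23.8, 39.98 and 40 points, and that in the ATF4 form, 1.18 points, became 0.102 points. With the same number of anti-ER sites per list, also chosen after seeing the data, the p42 minus p30 difference turned from −3.69 to 5.98 points at p42-only sites and went from −17.8 to −7.06 at p30-only sites. Promoter genes in both lines became 2854 with promoters of 2500 bp. Those in p42 only became 218 with the same number of sites and 1220 with wider promoters, and those in p30 only 658 and 679. Genes with any site became 1197 in p42 only and 1499 in p30 only with the same number of sites. Of 192 other values (class shares and counts in gene lists), 80 moved. Apart from the fewer sites ranked or the wider windows that define each alternative, the cause was not tested. No paired analysis was possible because each line had 1 library and no result came from a test. The lists hold no read counts, so no limit from depth was computed.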
